A study of Mus musculus with 6 samples.

Results

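Most of the genes described here encode chromatin remodellers of the SWI/SNF, ISWI and CHD families. The genes were taken as every row of the deposited expression table whose symbol begins with Smarc, Actl6, or Arid or Chd followed by a digit. This rule matched 36 of 22544 rows, each a separate symbol. Among them are 7 ARID genes outside SWI/SNF, 2 distant SNF2 ATPases and 1 pseudogene. For short, all 36 are called remodeller genes. The values come from RNA sequencing of upper-layer cortical neurons of Swiss Webster mice, labelled with green fluorescent protein, sorted by flow cytometry and sampled at postnatal day 3 (P3) or postnatal day 5 (P5). There were 3 biological replicates at each age, with no treatment or mutation in either group, and the labels do not say how the fluorescent label was delivered. The table holds 1 pooled value per gene and age, so no value per replicate is shown.

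Chromatin remodellers use the energy of ATP to slide, evict or exchange nucleosomes, and so set which DNA is open to transcription factors. SWI/SNF complexes, called BAF and PBAF in mammals, are built from many subunits, several of which come in alternative versions. Dividing neural progenitors carry the actin-like subunit Actl6a (BAF53a), the PHD finger subunit Phf10 (BAF45a) or Dpf2 and the subunit Ss18, and neurons that leave the cell cycle replace them with Actl6b (BAF53b), Dpf1 or Dpf3 (BAF45b and BAF45c) and Ss18l1 (CREST). ISWI complexes space nucleosomes evenly around the ATPase Smarca5 (SNF2H), prominent in dividing cells, or its relative Smarca1 (SNF2L), which is linked to differentiated neurons. CHD proteins carry chromodomains that bind modified histones, and mutations of several of them underlie human neurodevelopmental disorders.

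Both actin-like subunits and both ISWI ATPases were compared as pairs, and the DNA just upstream of their start sites is shown because it differs within each pair. RefSeq promoter sequences (GRCm38.p6) were found for 27 of the 36 genes, at 33 start sites. Each line below gives the 250 bases before the start site on the strand of the gene, 5′ to 3′. Capitals mark every GC box (GGGCGG, or CCGCCC on the other strand) and every CCAAT box (CCAAT, or ATTGG on the other strand). Both strands were searched, and no GC box shared bases with a CCAAT box in these 4 windows.
Actl6a, chr3:32708296-32708545, plus strand: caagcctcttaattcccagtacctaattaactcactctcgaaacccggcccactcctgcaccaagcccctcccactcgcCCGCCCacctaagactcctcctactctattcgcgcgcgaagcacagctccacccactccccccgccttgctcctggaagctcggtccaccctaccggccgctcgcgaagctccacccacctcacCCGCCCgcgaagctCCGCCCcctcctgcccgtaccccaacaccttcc
Actl6b, chr5:137553296-137553545, plus strand: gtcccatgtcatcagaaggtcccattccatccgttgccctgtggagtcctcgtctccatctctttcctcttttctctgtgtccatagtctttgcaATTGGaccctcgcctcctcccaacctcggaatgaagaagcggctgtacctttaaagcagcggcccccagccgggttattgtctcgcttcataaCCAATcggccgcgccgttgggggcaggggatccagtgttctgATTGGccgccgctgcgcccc
Smarca5, chr8:80739460-80739709, minus strand: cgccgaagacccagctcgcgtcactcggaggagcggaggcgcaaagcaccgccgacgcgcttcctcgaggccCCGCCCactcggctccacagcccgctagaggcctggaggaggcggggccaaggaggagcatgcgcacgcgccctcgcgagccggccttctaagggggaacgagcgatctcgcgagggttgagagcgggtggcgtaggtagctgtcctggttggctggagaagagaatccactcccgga
Smarca1, chrX:47892614-47892863, minus strand: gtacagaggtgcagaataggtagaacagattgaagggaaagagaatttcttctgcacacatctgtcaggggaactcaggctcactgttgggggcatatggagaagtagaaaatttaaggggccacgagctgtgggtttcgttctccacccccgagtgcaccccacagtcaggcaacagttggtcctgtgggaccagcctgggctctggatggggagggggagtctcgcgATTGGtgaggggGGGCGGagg

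The Actl6a window held 3 GC boxes and 0 CCAAT boxes, and the Actl6b window held 0 GC boxes and 3 CCAAT boxes. CpG dinucleotides numbered 19 in the Actl6a window and 15 in that of Actl6b. The ISWI pair differed more in CpG content, with 29 CpG dinucleotides upstream of Smarca5 and 6 upstream of Smarca1. Each of these windows held 1 GC box, and that of Smarca1 also held 1 CCAAT box. Over the 33 start sites the median was 21 CpG dinucleotides, against 15 at 11705 start sites of tested genes. The 33 include start sites of Arid3b, Arid3c and Arid5a, which were not tested for a difference between ages, so the sets differ in that respect. A GC box stood in 24 of the 33 windows (72.7%), against 57.1% of windows of tested genes. The windows of Chd4 overlap each other, as do those of Chd5, and each window was counted, so the 33 are not all separate stretches of DNA. A CCAAT box stood in 9 windows (27.3%), against 35.0% of windows of tested genes, and a TATA box (TATAAA, or TTTATA on the other strand) in 2 (6.06%), against 6.46%. A match of letters describes the sequence and does not show that a factor binds there.

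Expression is given as FPKM, a count of fragments divided by transcript length and by the mapped total, so levels of different genes can be set side by side. Of the 36 rows, 31 had been tested for a difference between ages by the authors with Cuffdiff, and each of these had at least 1.15 FPKM at both ages. The 5 rows not tested were the DNA-binding genes Arid3a, Arid3b, Arid3c and Arid5a and the pseudogene Smarca5-ps, and none of them exceeded 0.474 FPKM. The log2 ratio is that of P5 over P3, and its standard error (SE) is the size of this ratio divided by the size of the deposited test statistic. In these sorted bulk samples, fewer cells of a type and less RNA per cell cannot be told apart.

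None of the 31 tested remodeller genes differed between P3 and P5 at q = 0.05 in the authors' deposited table, where 0% of 12865 tested genes passed Cuffdiff's test and the lowest q was 0.999988. At an unadjusted Cuffdiff p under 0.05 the authors' deposited table held 1 remodeller gene, Smarca5, against 0.77% of tested genes in either direction and 0.179% in the direction of lower FPKM at P5. The FPKM was lower at P5 in 23 of the 31 genes and higher in 8, whereas 44.4% of all 12313 tested genes with FPKM above 0 at both ages were lower, and 48.9% of the 9665 with at least 1 FPKM at both ages. The median log2 ratio of the 31 genes was -0.34, beside 0.02 over the 9665 genes. These shares describe the pooled values and carry no replicate error. Of the 31 genes, 3 are ARID genes outside SWI/SNF, and all 3 had lower FPKM at P5. SEs of the 31 log2 ratios ran from 0.86 to 2.01 log2 units, and the 95% interval included 0 in 30 of the 31. Among the 9665 genes only 26 had an unadjusted Cuffdiff p under 0.05, so intervals that include 0 were usual among all genes. An interval that includes 0 does not show that the levels were equal. Ratios of -1 or less were found in 4 remodeller genes (Smarca5, Smarcd2, Arid1b and Arid4b), against 7.72% of the 9665 genes, and ratios of 1 or more in 0, against 13.8%.

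**Figure D1:**
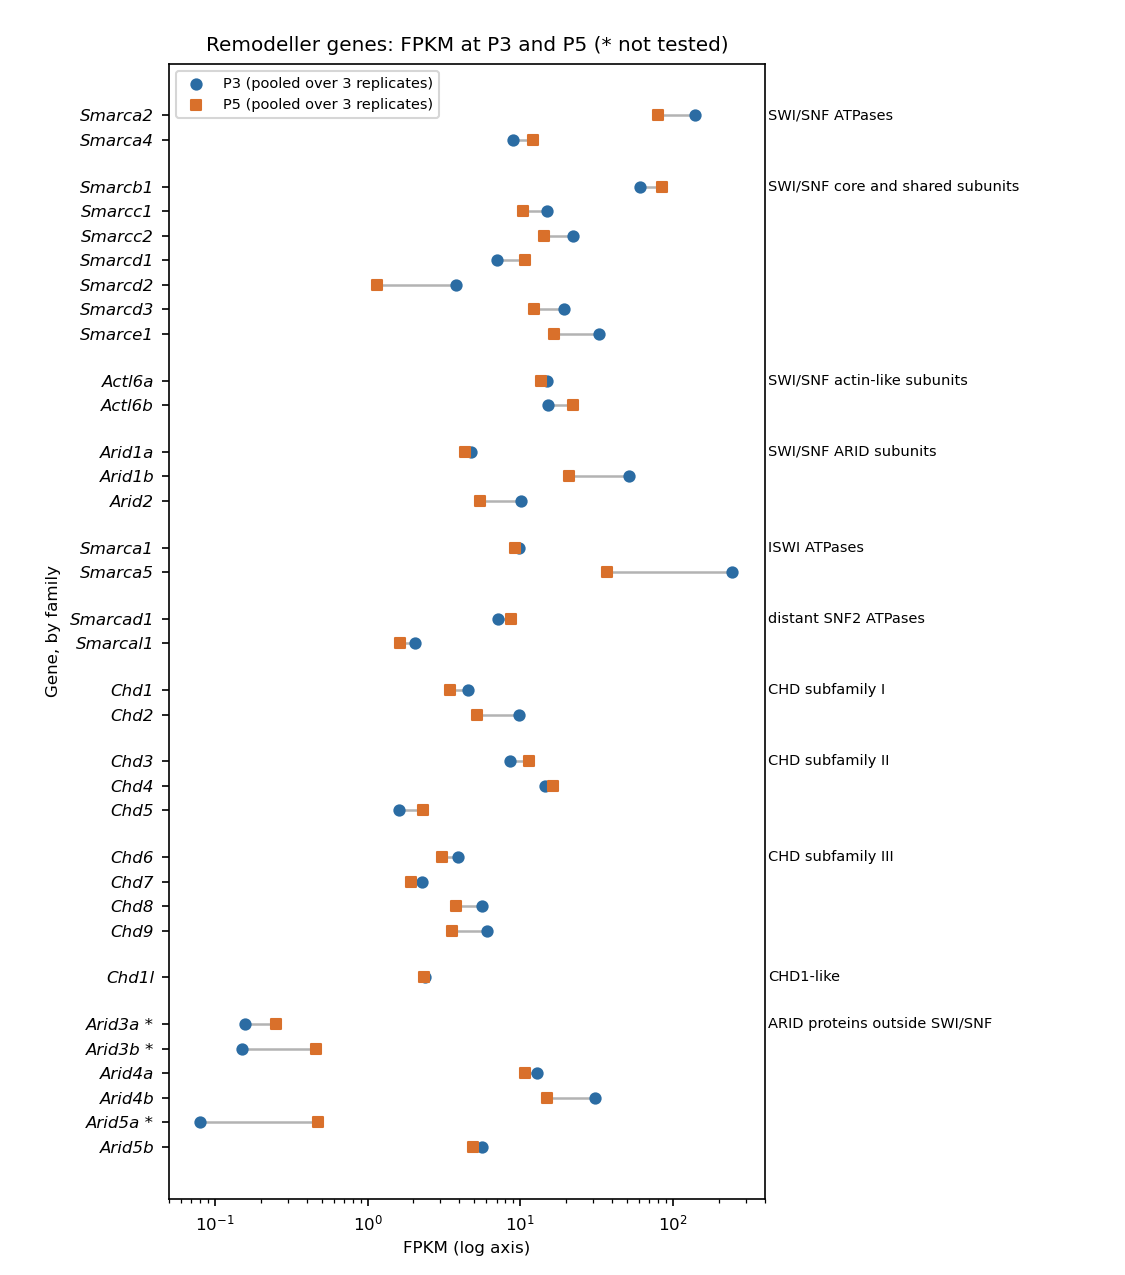
FPKM of each remodeller gene with a value above 0 at both ages, on a log axis, grouped by family, with circles for P3 and squares for P5, each pooled over 3 replicates. Smarca5 spans the widest gap among the tested genes shown, from 242 to 36.9 FPKM, and asterisks mark the genes that were not tested.

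The catalytic subunits of SWI/SNF were unequal at both ages. Smarca2 (BRM, mm9 chromosome 19, 26679650 to 26852811) had 139 FPKM at P3 against 79.6 at P5, a log2 ratio of -0.80 (SE 1.02). Smarca4 (BRG1, mm9 chromosome 9, 21420613 to 21508674), the alternative ATPase that early development cannot do without, had 8.99 and 12.2 FPKM, a ratio of 0.44 (SE 1.14). Smarca2 thus held 93.9% of the summed FPKM of the 2 ATPases at P3 and 86.7% at P5. It lay 15.4-fold above Smarca4 at P3 and 6.54-fold above it at P5. P5 minus P3, the log2 balance of Smarca2 over Smarca4 differed by -1.24 (SE 1.53), with a 95% interval from -4.23 to 1.76 that included 0.

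Core subunits that both ATPases share were present at moderate to high levels, except Smarcd2, with 3.78 FPKM at P3 and 1.15 at P5. Smarcb1 (SNF5, mm9 chromosome 10, 75359514 to 75384359), a tumour suppressor that contacts the nucleosome, had 60.6 FPKM at P3 against 85.3 at P5 (log2 ratio 0.49, SE 1.22), the highest level of any remodeller gene at P5. Smarce1 (BAF57), which holds an HMG box, had 33.0 and 16.5 FPKM (log2 ratio -0.99, SE 0.86). The scaffold genes Smarcc1 (BAF155) and Smarcc2 (BAF170) stood in a similar proportion at both ages, each with lower FPKM at P5. Smarcc1 had 15.0 and 10.3 FPKM and Smarcc2 had 22.3 and 14.4 FPKM. Their log2 balance, Smarcc2 over Smarcc1, was 0.58 at P3 and 0.48 at P5, a difference of -0.10 (95% interval -2.64 to 2.44).

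The 3 BAF60 subunits, which link the complex to transcription factors, went different ways in FPKM. Smarcd3 (BAF60c) was the most abundant at P3, with 19.3 FPKM, and had 12.2 at P5. Smarcd1 (BAF60a) had 7.01 FPKM at P3 against 10.8 at P5 (log2 ratio 0.63, SE 1.07). Smarcd3 over Smarcd1 was 2.75-fold at P3 and 1.13-fold at P5, a pair chosen after its values were seen, with a 95% interval of the log2 change from -4.23 to 1.66. Smarcd2 (BAF60b) had 3.78 and 1.15 FPKM, and its ratio of -1.72 carried the widest SE of the 31 genes, 2.01. In all, 5 of the 7 core and shared subunits had lower FPKM at P5 and 2 had higher, with a median log2 ratio of -0.63.

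ARID subunits decide which kind of SWI/SNF complex forms, Arid1a or Arid1b for BAF and Arid2 for PBAF. All 3 had lower FPKM at P5. Arid1b (BAF250b, mm9 chromosome 17, 4995074 to 5347656), mutated in Coffin-Siris syndrome, had 51.3 FPKM at P3 against 20.9 at P5 (log2 ratio -1.29, SE 1.03, p = 0.21 in the authors' deposited table). Its paralogue Arid1a (BAF250a) had 4.74 and 4.35 FPKM, and Arid2 (BAF200) had 10.1 and 5.41. Arid1b made up 77.6% of the summed FPKM of the 3 genes at P3 and 68.2% at P5, and Arid1a 7.17% and 14.2%. Arid1b lay 10.8-fold above Arid1a at P3 and 4.80-fold at P5, a pair also chosen after its values were seen. The 95% interval of that log2 change, -3.99 to 1.64, included 0.

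The exchange of progenitor-type for neuron-type subunits was examined next, through the actin-like pair inside the rule and 6 subunits outside it. Actl6a (mm9 chromosome 3, 32607468 to 32625893) had 14.9 FPKM at P3 against 13.6 at P5 (log2 ratio -0.14, SE 1.09). Actl6b (mm9 chromosome 5, 137994783 to 138010801) had 15.3 and 22.3 FPKM (log2 ratio 0.54, SE 1.22). The pair was thus at nearly equal levels at P3, with Actl6b 1.02-fold Actl6a, and at 1.64-fold at P5. P5 minus P3, the difference in log2 balance was 0.68 with an SE of 1.63, and the 95% interval from -2.52 to 3.88 included 0. Transcripts of the progenitor-type subunit were therefore measured at both ages in samples labelled as sorted neurons. These samples also held transcripts of progenitor markers (summed 131 FPKM at P3 and 94.2 at P5) and astrocyte markers (2375 and 3004 FPKM). Neuron markers summed to 818 FPKM at P3 and 1274 at P5. Which cells gave the Actl6a transcripts was not tested.

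Among PHD finger subunits, the progenitor-type Phf10 had 15.5 FPKM at P3 against 6.86 at P5 (log2 ratio -1.18, SE 1.85). The neuron-type Dpf1 had 16.3 and 17.0 FPKM, a log2 ratio of 0.06 (SE 1.04). Dpf1 over Phf10 was 1.05-fold at P3 and 2.48-fold at P5, with a 95% interval of the log2 change from -2.92 to 5.39. The other neuron-type gene, Dpf3, was low at 0.179 and 0.0519 FPKM and was not tested. Dpf2, found in progenitors and in many other tissues, had 8.21 and 10.9 FPKM, so that Dpf1 over Dpf2 was 1.99-fold at P3 and 1.56-fold at P5.

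The Ss18 pair went the other way in FPKM. Neuron-type Ss18l1, a calcium-responsive activator of dendrite growth, had 14.2 FPKM at P3 against 7.19 at P5 (log2 ratio -0.98, SE 1.01). Ss18 had 3.65 and 3.30 FPKM. Ss18l1 was therefore the more abundant of the pair at both ages, 3.89-fold at P3 and 2.18-fold at P5. The 3 exchange positions did not share a direction, since Actl6b over Actl6a and Dpf1 over Phf10 were higher at P5, while Ss18l1 over Ss18 and Dpf1 over Dpf2 were lower. In these 4 balances the 95% interval of the change included 0, as it did in all 13 pairs of tested genes that were compared, 4 of which were chosen after their values were seen.

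**Figure D2:**
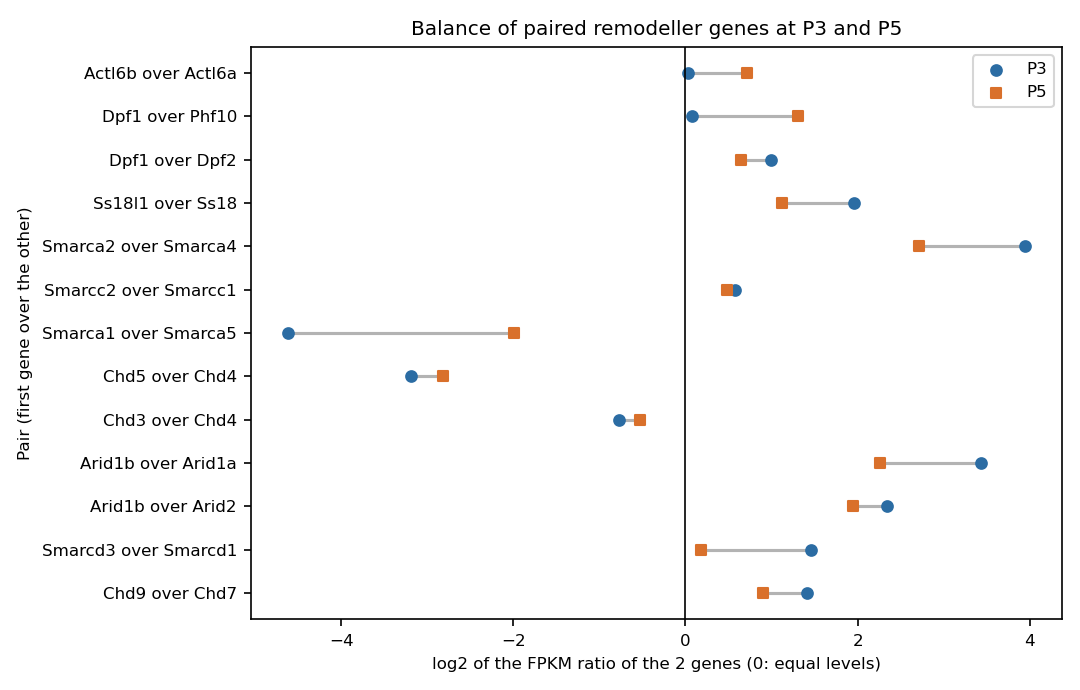
Log2 of the FPKM ratio of 2 genes at P3 (circles) and P5 (squares) for the 13 pairs in which both genes were tested, with 0 marking equal levels. Actl6b over Actl6a goes from 0.03 to 0.71, and Smarca1 over Smarca5 from -4.62 to -2.00; the last 4 pairs were chosen after their values were seen.

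The ISWI ATPases held the largest difference of the 31 genes. Smarca5 (mm9 chromosome 8, 83223843 to 83263358) had 242 FPKM at P3 against 36.9 at P5, which is 6.57-fold lower at P5 (log2 ratio -2.72, SE 1.36, Cuffdiff p = 0.0465 in the authors' deposited table). Its 95% interval, -5.39 to -0.04, was the only 1 of the 31 that did not include 0, and the authors' deposited table gives it a q of 0.999988. At P3 Smarca5 was the most abundant of all remodeller genes, at percentile 98.8 of rows with FPKM above 0, and at P5 it ranked 3, after Smarcb1 and Smarca2. The pseudogene Smarca5-ps (mm9 chromosome 4, 145054113 to 145057864), whose sequence derives from Smarca5, was listed at 0 at both ages. How reads matching both were assigned is not given in the sources used here, so the level of Smarca5 is uncertain to that extent.

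Smarca1 (mm9 chromosome X, 45162547 to 45245729), the neuron-linked ISWI ATPase, had 9.88 FPKM at P3 against 9.25 at P5 (log2 ratio -0.10, SE 0.98). Smarca5 exceeded Smarca1 by 24.5-fold at P3 and by 3.99-fold at P5. The balance of Smarca1 over Smarca5 was 2.62 log2 units higher at P5 (SE 1.68), and its 95% interval from -0.67 to 5.91 included 0. Smarca1 held 3.92% of the summed ISWI ATPase FPKM at P3 and 20.1% at P5.

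Partners of the ISWI ATPases showed no gap of that size. Of 11 listed ISWI complex subunits, all tested, 7 were lower and 4 higher at P5, with a median log2 ratio of -0.12, and 0 passed the authors' Cuffdiff test at q = 0.05 or an unadjusted p under 0.05. The histone-fold subunits Chrac1 and Pole3 had 34.0 and 49.4 FPKM and 28.4 and 31.0 FPKM. Rsf1, the large partner of Smarca5 in the RSF complex, had 16.2 FPKM at P3 against 9.02 at P5. Baz1b, the Williams syndrome transcription factor, had 13.4 and 8.15 FPKM. The lowest ratio of the list was -0.86, against -2.72 for Smarca5.

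The 2 more distant SNF2 ATPases of the rule had ratios between -0.34 and 0.27. Smarcad1, which helps to restore silent chromatin after replication, had 7.17 and 8.68 FPKM (log2 ratio 0.27, SE 0.97). Smarcal1, which rewinds DNA at stalled replication forks, had 2.06 and 1.63 FPKM (log2 ratio -0.34, SE 1.31).

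The CHD subfamilies differed in the direction of their pooled FPKM, which was not tested by subfamily. Subfamily II, the ATPases of the NuRD deacetylase complex, had higher FPKM at P5 in 3 of 3 genes. Of the 9665 tested genes with at least 1 FPKM at both ages, 4936 were also higher. Each of the 3 log2 ratios was smaller than its SE, so their shared direction does not show a difference between ages for the subfamily. Chd4 (Mi-2β, mm9 chromosome 6, 125046181 to 125080519) was the most abundant, at 14.6 FPKM at P3 against 16.4 at P5 (log2 ratio 0.17, SE 0.90). Chd3 had 8.52 and 11.4 FPKM (log2 ratio 0.42, SE 0.98). Chd5, the neuron-enriched member and a tumour suppressor, had 1.60 and 2.32 FPKM (log2 ratio 0.53, SE 1.42). Chd4 exceeded Chd5 by 9.09-fold at P3 and by 7.08-fold at P5, so the neuron-enriched gene remained the least abundant of the subfamily at both ages.

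Subfamilies I and III had lower FPKM at P5 in 6 of 6 genes, against 48.9% of tested genes with at least 1 FPKM at both ages. All 6 lie in the longest quintile by transcript length, where 56.9% of genes were lower. Chd3, Chd4 and Chd5 of subfamily II, which had higher FPKM at P5, lie in the same quintile. Chd2 (mm9 chromosome 7, 80571538 to 80703281), in which mutations cause childhood epilepsy, had 9.74 and 5.17 FPKM (log2 ratio -0.91, SE 1.01). Its locus is shared with 1 other row of the table, so its reads may be mixed with those of an overlapping transcript. Chd1, which travels with elongating RNA polymerase, had 4.57 and 3.46 FPKM. In subfamily III, Chd9 had 6.07 and 3.59 FPKM (log2 ratio -0.76, SE 0.89) and Chd8 (mm9 chromosome 14, 52817826 to 52857247), a leading autism risk gene, had 5.60 and 3.79 FPKM (log2 ratio -0.56). The locus of Chd8 is also shared with 1 other row. Chd6 had 3.93 and 3.07 FPKM, and Chd7, mutated in CHARGE syndrome, had 2.28 and 1.93. The medians were -0.66 for subfamily I, -0.46 for subfamily III and 0.42 for subfamily II. Without the 2 genes that share a locus, Chd2 and Chd8, the median of subfamily I was -0.40, from Chd1 alone, and that of subfamily III was -0.36. Chd1l (ALC1), a remodeller recruited by poly(ADP-ribose) at DNA damage, had 2.39 and 2.33 FPKM.

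**Figure D3:**
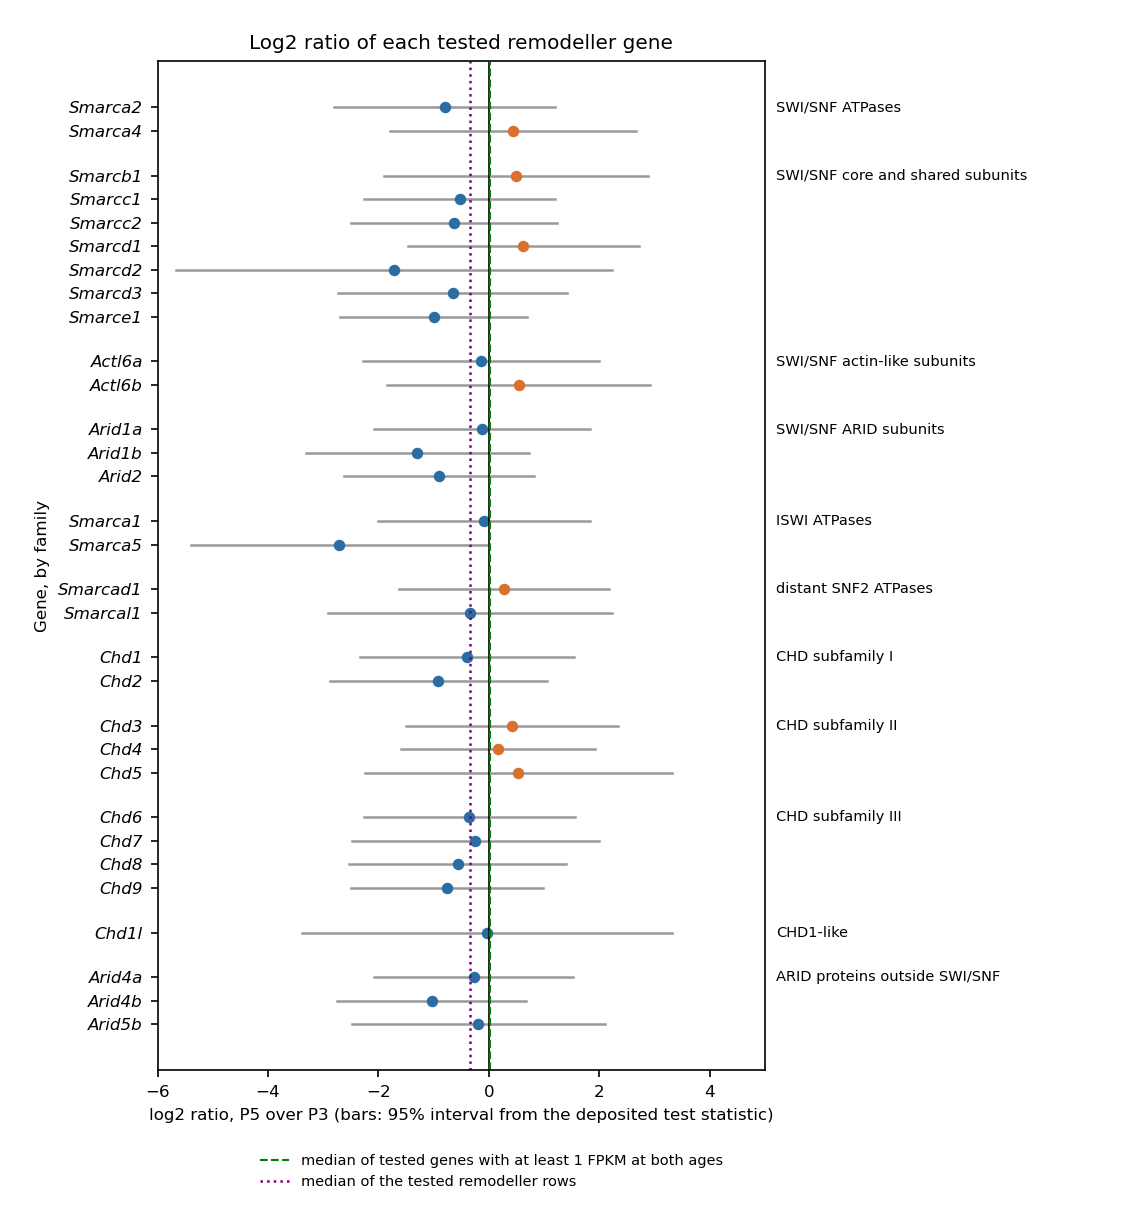
Log2 ratio of P5 over P3 for the 31 tested genes with 95% intervals, coloured by direction, with lines for the median of these genes (-0.34) and of the 9665 genes with at least 1 FPKM at both ages (0.02). Only the interval of Smarca5 lies wholly below 0. The ratios of the 3 genes of CHD subfamily II lie above 0, with intervals that include 0.

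Other subunits of NuRD were split in direction. Of 10 tested NuRD subunits, 7 were lower and 3 higher at P5, with a median log2 ratio of -0.29, and 0 passed either threshold in the authors' deposited table. The deacetylase Hdac2 had 71.0 FPKM at P3 against 56.3 at P5. Mta1 had 26.1 and 11.3 FPKM (log2 ratio -1.20, SE 0.93), and the methyl-CpG binding subunit Mbd2 had 12.1 and 4.44 (log2 ratio -1.45, SE 1.27). The 3 higher subunits, named after their values were seen, were Mta3 (1.67 and 6.81 FPKM, log2 ratio 2.03, SE 2.67), Rbbp4 (8.67 and 12.5 FPKM) and Gatad2a (6.67 and 7.92 FPKM).

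Further SWI/SNF subunits lie outside the rule. Of 9 tested, 6 were lower and 3 higher at P5, with a median log2 ratio of -0.39. The zinc finger subunit Bcl11a (Ctip1) had 79.4 and 60.4 FPKM, and Pbrm1, the polybromo subunit of PBAF, had 36.7 and 28.0. Bcl7b had 6.78 and 14.3 FPKM and Bcl7a had 15.4 and 10.4, so these related subunits had opposite directions. In the INO80 and SWR1 family, 8 of 15 tested genes had higher FPKM at P5 and 7 lower (median 0.02). Its most abundant members, Actr6 and Znhit1, had 70.2 and 40.8 FPKM and 44.8 and 39.4 FPKM, and those with the lowest p were Dmap1 (2.36 and 9.46 FPKM) and Actr8 (3.51 and 10.3 FPKM). Other SNF2 family ATPases were split, with 5 of 10 higher at P5 (median -0.04). Atrx, a remodeller that deposits histone H3.3 at repeats, had 64.1 and 47.5 FPKM. Hltf, which remodels stalled forks, had 11.7 and 3.96 FPKM, and Btaf1, which removes the TATA-binding protein from DNA, had 4.44 and 2.14. Over all 58 tested partner genes, 24 were higher and 34 lower at P5, with a median log2 ratio of -0.22, and 0 passed q = 0.05 or an unadjusted p under 0.05 in the authors' deposited table.

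The rule also matched 7 ARID genes that encode DNA-binding proteins outside SWI/SNF. Arid4b, a subunit of the SIN3 corepressor, had 30.6 FPKM at P3 against 14.9 at P5 (log2 ratio -1.04, SE 0.87), and its paralogue Arid4a had 13.0 and 10.7. Arid5b, a partner of the demethylase Phf2, had 5.62 and 4.91 FPKM. Arid3a, Arid3b and Arid5a stayed below 0.5 FPKM at both ages (0.159 and 0.252, 0.152 and 0.457, and 0.0800 and 0.474 FPKM), and Arid3c was listed at 0 at both. By level, the group therefore split into 3 genes above 4 FPKM and 4 genes below 0.5 FPKM.

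Most remodeller genes have long transcripts, and transcript length went with the direction of the ratios in the table as a whole. By the longest coding transcript in GENCODE M21, 18 of the 31 tested genes fell in the longest quintile of genes, of 5334 bases or more. Among all genes with at least 1 FPKM at both ages and a matched length, the median log2 ratio was 0.16 in the shortest quintile and -0.11 in the longest, where 56.9% of genes had lower FPKM at P5. In that longest quintile 14 of 18 remodeller genes were lower, with a median of -0.47. After subtracting from each gene the median of its length quintile, the median of the 31 genes was -0.28. Whether length has a part in the individual ratios was not tested.

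**Figure D4:**
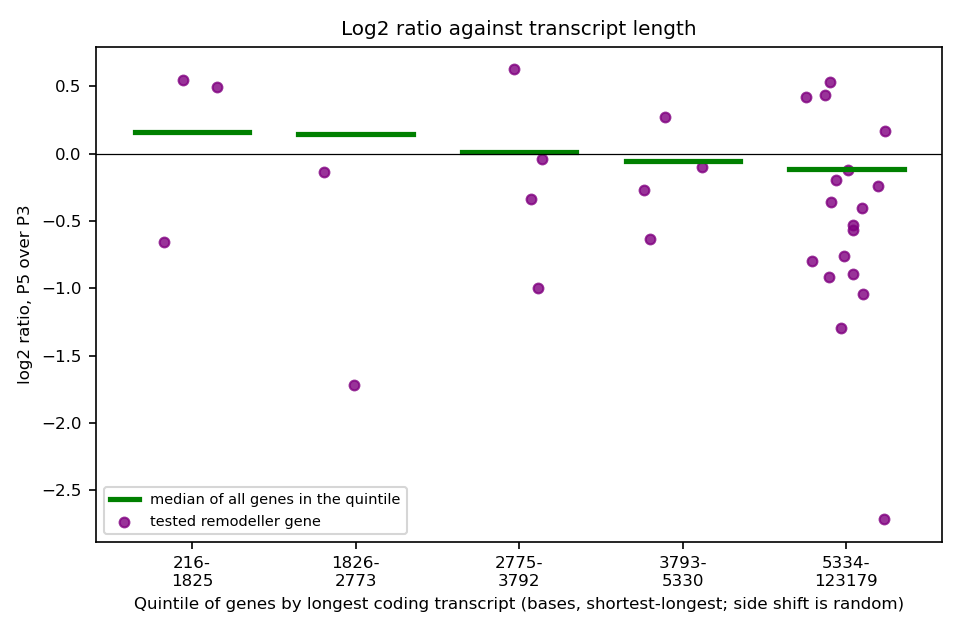
Log2 ratio of P5 over P3 against quintiles of transcript length, with points for the 31 tested remodeller genes and bars for the median of all genes with at least 1 FPKM at both ages. The bars go from 0.16 in the shortest quintile to -0.11 in the longest, and 18 of the points lie in the longest quintile.

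Markers of several cell types were read beside these values. Of 9 upper-layer markers, 4 were higher and 5 lower at P5, and their summed level was 472 FPKM at P3 against 478 at P5, with Cux2 low at 1.87 and 1.99. Progenitor markers were lower in 6 of 8 genes (summed 131 and 94.2 FPKM). Astrocyte markers were higher at P5 in 7 of 8 genes (2375 and 3004 FPKM), those of microglia in 9 of 9 (15.7 and 134 FPKM), of oligodendrocytes in 8 of 8 (124 and 257 FPKM) and those of endothelial and mural cells in 6 of 8. Of the last sum, 916 and 947 FPKM, the mural gene Rgs5 supplied 911 and 905, and the other 7 markers summed to 4.94 FPKM at P3 and 42.2 at P5. Deep-layer and subplate markers were higher in 6 of 7 genes (46.8 and 137 FPKM) and interneuron markers in 4 of 7 (242 and 499 FPKM). Neuron markers were higher in 4 of 7 (818 and 1274 FPKM). The 3 lower included Neurod2 (25.2 and 11.9 FPKM) and Neurod6 (237 and 109 FPKM). None of these markers was at 0 at either age. The part of other cell types in the remodeller values was not tested.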

How the data were processed

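RNA sequencing values of sorted upper-layer cortical neurons were taken from 1 table of the whole series. The submitters' processing notes name TopHat, Cuffdiff 2.02 and the mouse build mm9, without the role of each. Gene annotation is not given in the sources used here, nor are strandedness and read numbers. Per the file headers, the deposited FPKM are 1 value per age, made by the authors from 3 replicates, so depth is unknown and no new test across replicates was possible. The deposited log2 ratio and test statistic were handled as a score, because a placeholder stands where 1 age is listed at 0. The deposited p-value and q-value are those of the authors' Cuffdiff test, which was the only test used. Whether the replicates came from separate animals or litters is not stated, so whether the p-values cover the spread between animals is unknown.

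Log2 ratios were computed from the pooled FPKM and equalled the deposited ones to within 1.51e-05. Over 12313 tested rows with an FPKM above 0 at P3 and P5, the deposited p-value was the two-sided normal tail of the statistic to within 2.8e-06, which gave each ratio a standard error and an interval of 1.96 standard errors. The SE of a balance of 2 genes took their errors as independent. Families were described by counts and medians without a test. The computation was tested on simulated data drawn with these same standard errors, which cannot show whether the errors fit the real data. Loci are given on mm9 with starts counted from 1. Promoter windows are from RefSeq on GRCm38.p6, and no coordinate was moved between builds. Python 3.11.15, pandas 2.3.3 and scipy 1.17.1 were used.

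The members, lists and pairs were chosen with earlier results of these data known. Every row of the rule is named. Genes outside it are named where they belong to a pair, are among the 2 with the highest mean FPKM or the 2 with the lowest p of their list, or are markers. Of 63 listed partner genes, 61 were matched to the table. Alternatives were other thresholds, pseudocounts, a minimum of 1 FPKM, untested rows, centring, means, rows that share a locus, transcript length, and leaving out Smarca5, the last 2 being chosen after seeing the data.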

Additional observations from a re-analysis of the deposited data

How the results depend on the processing

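No remodeller gene passed at q = 0.1 or when p was adjusted again over genes with at least 1 FPKM at either age, and 1 did at an unadjusted p under 0.05. The median log2 ratio of the 31 genes stayed negative under all 9 alternatives, from -0.47 when centred on the median of tested genes to -0.25 with a pseudocount of 1 FPKM, and was -0.31 without Smarca5. Of 157 alternative values over the families and the 11 planned pairs, 2 changed sign; the 4 pairs chosen after their values were seen were not run. The median of the distant SNF2 ATPases was 0.0123 with a pseudocount of 1 FPKM, and that of the ARID genes outside SWI/SNF was 0.234 when untested rows were included. With a pseudocount of 1 FPKM, the log2 balance of Dpf3 over Phf10 was -3.81 at P3 and -2.90 at P5, where without it the values were -6.44 and -7.04, so its direction between ages turned. That of Dpf3 over Dpf2 was -2.97 and -3.50, against -5.52 and -7.71. Dpf3 lies far below 1 FPKM. Without rows that share a locus, the median of the whole CHD family was -0.14, against -0.30 with them. No paired analysis was possible because the table gives 1 pooled value per age, and for the same reason no replicate could be left out. Depth is unknown, so the errors of low genes rest on the deposited statistic.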
